A study of Homo sapiens with 6 samples.

Results

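The membrane-type matrix metalloproteinases (MMP14, MMP15, MMP16, MMP17, MMP24 and MMP25) and the tissue inhibitors of metalloproteinases (TIMP1, TIMP2, TIMP3 and TIMP4) were chosen by gene family membership and matched to the expression tables by NCBI Gene ID. All 10 genes, 6 proteases and 4 inhibitors, were found among the 16623 genes measured. RNA was sequenced from MDA-MB-231, an established triple-negative human breast cancer cell line grown as an adherent culture. The cells received PCI-24781 at 100 nM or at 200 nM, or the vehicle DMSO alone, each for 24 h and for 48 h, and each of the 6 conditions was measured in 1 library. PCI-24781 (abexinostat) is a hydroxamate inhibitor of histone deacetylases, the enzymes that remove acetyl groups from histones and other proteins. Because no condition was replicated, no p-value was calculated, and every difference is a difference between 2 libraries whose spread between cultures is unknown.

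Matrix metalloproteinases are zinc-dependent enzymes that cut collagens, laminins and other proteins of the extracellular matrix. The membrane-type enzymes are held at the cell surface, MMP14, MMP15, MMP16 and MMP24 by a transmembrane segment and MMP17 and MMP25 by a glycosylphosphatidylinositol anchor, and they are activated inside the cell by furin-like convertases. The TIMPs are secreted proteins that bind the active site of metalloproteinases. MMP14 and TIMP2 are linked in a further way, because a complex of both on the cell surface captures the precursor of the secreted gelatinase MMP2 so that a neighbouring MMP14 can activate it. MMP14 is also known as a protease that invading breast cancer cells use to cross dense collagen.

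Values are FPKM, fragment counts scaled by the length of the transcript and by the depth of the library, and can be compared between genes. The depth inferred from the spacing of low values was 15700000 to 18000000 fragments per library, and between 1130 and 1708 genes were listed at 0. The cell line was checked against its markers: VIM ranged from 1629.38 to 2053.39 FPKM, AXL from 333.36 to 486.08, CAV1 from 189.86 to 218.67 and CD44 from 154.04 to 218.74, while ESR1 stayed at or below 0.04, PGR at or below 0.03 and CDH1 at or below 0.39. Of the other markers that this line should hold at a low level, GATA3 ranged from 0.70 to 1.03 FPKM and FOXA1 from 1.28 to 1.75. CDKN1A, a cell cycle inhibitor gene that HDAC inhibitors are known to induce, was at 13.18, 30.61 and 48.84 FPKM with DMSO, 100 nM and 200 nM at 24 h, but at 44.25, 25.81 and 52.88 FPKM at 48 h. The DMSO 48 h library stood above the 100 nM 48 h library for CDKN1A, and whether that reflects the culture, the compound or the labels cannot be told apart with 1 library each. Differences at 48 h are from the DMSO 48 h library unless stated, and the calls against the DMSO 24 h library are given as well.

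The 10 genes spanned levels from 0.02 FPKM, for TIMP3 in the DMSO 48 h library, to 357.93 FPKM, for TIMP2 with 200 nM at 48 h. TIMP2, TIMP1 and MMP14 were, in this order, the most abundant in all 6 libraries. MMP24 came next in 4 libraries, and in both 200 nM libraries MMP15 stood above it. MMP16, MMP15, TIMP4 and MMP17 lay near 1 FPKM in the DMSO libraries, between 0.32 and 1.93 FPKM, and their order among themselves differed from library to library. MMP25 and TIMP3 were the lowest in every library. Over all 6 libraries, 4 genes (MMP14, MMP24, TIMP1 and TIMP2) were always at 1 FPKM or more, 8 genes reached 1 FPKM in at least 1 library, and 2 genes (MMP25 and TIMP3) never did. With 1 library per condition it cannot be said whether neighbours in this order, such as MMP16 and TIMP4 at 1.62 and 1.61 FPKM with 100 nM at 24 h, differ beyond the spread between cultures.

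**Figure D1:**
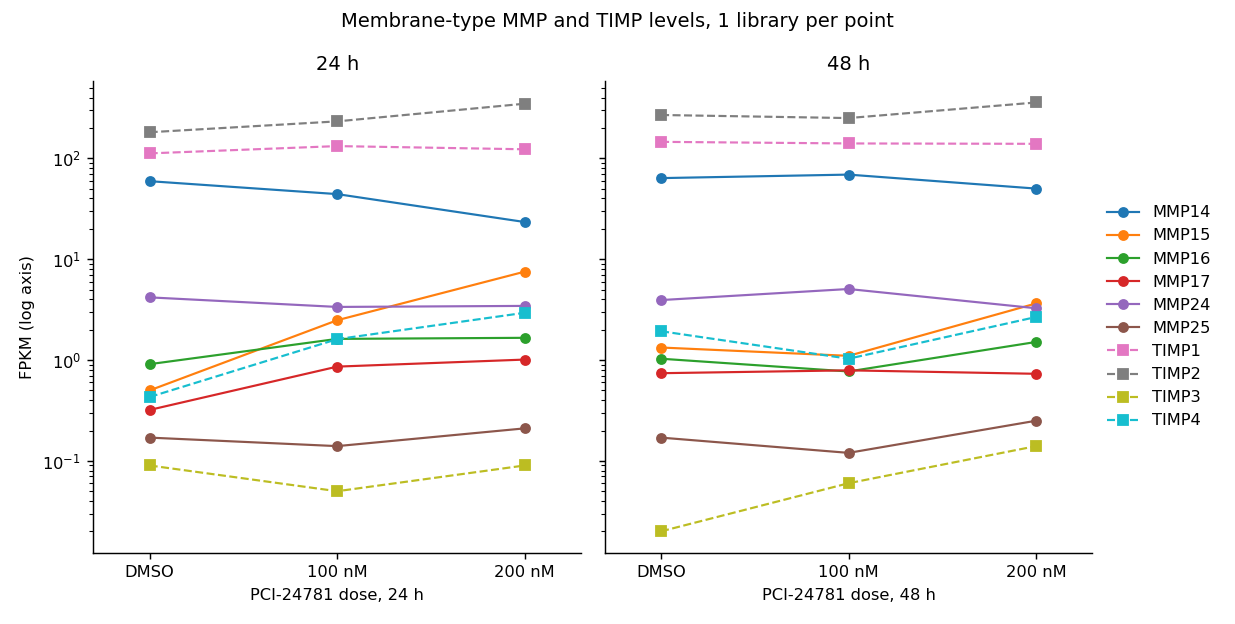
FPKM on a log axis of the 6 membrane-type MMPs and the 4 TIMPs in each of the 6 libraries, with 1 point per library and lines joining the libraries of 1 time. TIMP2, TIMP1 and MMP14 lie above 20 FPKM throughout, MMP15 climbs from 0.50 to 7.52 FPKM at 24 h, and MMP25 and TIMP3 remain at 0.25 FPKM or less.

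Differences are given as differences in log2(FPKM + 1), where the added 1 pulls the change of genes near or below 1 FPKM towards 0. A gene was called higher or lower at a change of at least 2-fold on this scale, provided that 1 or both of the libraries compared held it at 1 FPKM or more. With 100 nM at 24 h, 7 of the 10 genes passed the FPKM filter and 1 of them, MMP15, was called higher, while none was called lower. The same rule called 1.35% of all 11475 genes that passed the filter higher and 0.131% lower. With 200 nM at 24 h, 8 genes passed, of which MMP15 and TIMP4 were called higher and MMP14 was called lower, against 4.49% of 11660 genes higher and 1.48% lower. MMP15 and TIMP4 were under 1 FPKM with DMSO at 24 h and passed the filter only through the treated library, and with 1 FPKM or more asked of both libraries no member was called higher at either dose.

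At 48 h none of the 7 genes that passed was called at either dose. The background at 48 h was 0.0608% of 11514 genes higher and 0.408% lower with 100 nM, and 0.206% of 11665 genes higher and 0.06% lower with 200 nM. Over all 10 genes, without a filter, the median difference was 0.30 with 100 nM and 0.31 with 200 nM at 24 h, and -0.06 and 0.13 at 48 h. For all 16623 genes the corresponding medians were 0.01, 0.03, -0.01 and 0.01. From DMSO 24 h to DMSO 48 h, without the compound, the median over the 10 genes was 0.24, against 0.0 over all genes. The 200 nM library of 24 h had 7 of the 10 genes with a positive difference and 2 with a negative difference, and TIMP3 had the same value in both libraries. With 100 nM at 48 h the split was 4 positive and 6 negative. It was 6 positive and 4 negative with 100 nM at 24 h and with 200 nM at 48 h. Of all 16623 genes, 8889 were above 0 and 6713 below with 200 nM at 24 h. With 100 nM at 48 h, 6876 were above 0 and 8436 below. With 100 nM at 24 h these numbers were 8597 and 6779, and with 200 nM at 48 h 8582 and 7059.

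**Figure D2:**
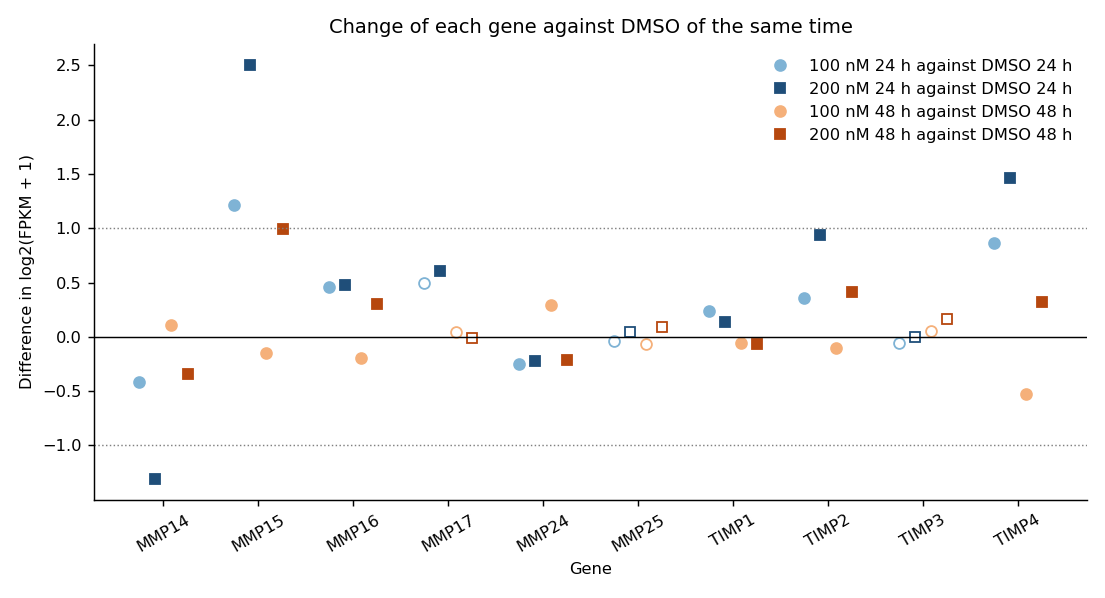
Difference in log2(FPKM + 1) from the DMSO library of the same time for each of the 10 genes, at 100 nM and 200 nM and at 24 h and 48 h, with dotted lines at the 2-fold limits and open symbols where the FPKM filter was not passed. At 24 h with 200 nM, MMP15 (2.51) and TIMP4 (1.46) lie beyond the upper limit and MMP14 (-1.31) beyond the lower, and at 48 h all 10 genes lie within the limits.

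MMP14, the most abundant of the membrane-type enzymes and the main activator of the MMP2 precursor, was lower in both treated libraries at 24 h than in DMSO. Its level at 24 h was 59.34 FPKM with DMSO, 44.18 FPKM with 100 nM and 23.35 FPKM with 200 nM. At 48 h it was 63.65, 68.95 and 50.11 FPKM. The lowest of the 6 values was that with 200 nM at 24 h, and the DMSO libraries of both times lay close together. MMP14 fell by 1.31 on the log2 scale with 200 nM at 24 h, to 0.394 of the DMSO value, which placed it 60th from the lowest of 11660 genes. The difference was -0.42 with 100 nM at 24 h, and 0.11 and -0.34 with 100 nM and 200 nM at 48 h, none of which met the rule. Between the doses, the 200 nM library was below the 100 nM library by -0.89 at 24 h and by -0.45 at 48 h. The value with 200 nM at 24 h stood for about 1525 fragments and that with DMSO for about 3986, so that counting error is small beside this difference. In bulk RNA, fewer cells that express the gene and less RNA per cell cannot be told apart.

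MMP14 lies on chromosome 14 of build hg19, from 23305742 to 23316809 on the forward strand. Its nearest neighbours in the tables changed less with 200 nM at 24 h, by -0.18 for MRPL52 and -0.06 for LRP10. MRPL52, a mitochondrial ribosomal protein gene that ends 1496 bases before MMP14, had 30.24, 30.29 and 26.62 FPKM at 24 h. At 48 h it had 27.40, 24.90 and 25.37 FPKM. LRP10, a lipoprotein receptor gene that starts 24151 bases beyond MMP14, had differences between -0.06 and 0.19. At 48 h LRP10 was at 61.01, 69.90 and 58.87 FPKM, in the same order of libraries as MMP14. Neither was called in any comparison.

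MMP15, a close relative of MMP14 with a transmembrane anchor, went the opposite way and had the widest range over the 6 libraries among the genes that reached 1 FPKM. It was at 0.50 FPKM with DMSO, 2.48 FPKM with 100 nM and 7.52 FPKM with 200 nM at 24 h. At 48 h it was at 1.33, 1.10 and 3.64 FPKM. Both 200 nM libraries were above the other 4, and the DMSO 24 h library was the lowest. MMP15 rose with 100 nM at 24 h by 1.21, ranking 77th of 11475 genes from the highest, and with 200 nM by 2.51, ranking 23rd of 11660. On the FPKM scale itself the ratios to DMSO were 4.96 and 15.0. The DMSO 24 h value rests on only about 38 fragments, against about 559 with 200 nM. At 24 h MMP15 passed the filter only through the treated libraries, so its ranks there are not separate support for the rise. At 48 h the difference was -0.15 with 100 nM and 0.99 with 200 nM, the latter just under the 2-fold limit and 25th from the highest of 11665 genes. From 100 nM to 200 nM, MMP15 was higher by 1.29 at 24 h and by 1.14 at 48 h.

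MMP15 lies on chromosome 16 of hg19, from 58059470 to 58080805 on the forward strand. USB1, an RNA exonuclease gene that ends 3943 bases before it, was at 36.02, 46.22 and 61.63 FPKM at 24 h, in the same order of doses, with differences of 0.35 and 0.76 that did not meet the rule, and at 34.52, 32.15 and 37.45 FPKM at 48 h. CFAP20, on the other side, had negative differences between -0.25 and -0.10 in all 4 comparisons. The 3 genes whose log2(FPKM + 1), centred on its mean, lay nearest to that of MMP15 over the 6 libraries, among 11872 candidates, were VXN (Euclidean distance 0.453), SERPINI1 (0.458) and FGFR4 (0.476). SERPINI1 encodes neuroserpin, an inhibitor of plasminogen activators, and was at 0.46, 3.30 and 8.32 FPKM at 24 h and 2.06, 0.95 and 4.76 FPKM at 48 h. FGFR4, a fibroblast growth factor receptor gene, was at 0.68, 2.35 and 6.08 FPKM at 24 h and 1.83, 0.82 and 3.33 FPKM at 48 h. VXN was at 1.66, 4.17 and 9.25 FPKM, then 2.84, 1.80 and 5.68 FPKM.

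Because MMP14 and MMP15 were called in opposite directions with 200 nM at 24 h, the DNA just before their start sites is shown. The sequences are from RefSeq, build GRCh38.p14, and were limited to bases outside every annotated GENCODE release 29 transcript of the gene. The MMP14 stretch is chr14:22836335-22836556 on the forward strand, 222 bases that end 29 bases before the RefSeq start. The MMP15 stretch is chr16:58025504-58025565 on the forward strand, 62 bases that end 189 bases before the RefSeq start. Capitals mark the GC box, the letters GGGCGG or, on the other strand, CCGCCC, which Sp-family transcription factors are known to bind.
MMP14 upstream: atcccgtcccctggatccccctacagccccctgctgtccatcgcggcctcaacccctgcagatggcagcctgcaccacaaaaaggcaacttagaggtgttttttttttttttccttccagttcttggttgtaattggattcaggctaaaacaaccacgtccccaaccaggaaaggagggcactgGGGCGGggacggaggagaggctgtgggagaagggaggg
MMP15 upstream: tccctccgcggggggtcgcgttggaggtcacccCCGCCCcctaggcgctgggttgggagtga
Each stretch held 1 GC box. Over the same positions relative to the start, 39.2% of 35116 promoters held a GC box in the MMP14 interval and 11.0% in the shorter MMP15 interval. The letters CCAAT, or ATTGG on the other strand, occurred once before MMP14 and were not in the MMP15 stretch, against 29.99% and 7.72% of promoters. TATAAA, or TTTATA on the other strand, was in neither stretch (8.16% and 2.95% of promoters). The share of G and C was 56.3% for MMP14, near the median of 57.7% in that interval, and 74.2% for MMP15, above the median of 54.8%. These matches describe letters in short windows, and binding was not measured here.

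The remaining membrane-type enzymes with a transmembrane segment differed less. MMP24, best known from the nervous system, where it cuts cadherins, was at 4.18, 3.36 and 3.44 FPKM at 24 h and 3.93, 5.06 and 3.26 FPKM at 48 h. Its differences of -0.25, -0.22, 0.30 and -0.21 (100 nM and 200 nM at 24 h, then at 48 h) did not meet the rule, and the highest value was that with 100 nM at 48 h. MMP16 was at 0.91, 1.62 and 1.66 FPKM at 24 h and 1.03, 0.77 and 1.51 FPKM at 48 h. The 2 DMSO libraries and the 100 nM 48 h library were the lowest, and the differences of 0.46, 0.48, -0.20 and 0.31 were not called.

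Of the enzymes with a glycosylphosphatidylinositol anchor, MMP17 was at 0.32, 0.86 and 1.01 FPKM at 24 h and 0.74, 0.79 and 0.73 FPKM at 48 h. It passed the filter only with 200 nM at 24 h, where its difference of 0.61 was not called (1.40 and 1.63, both past the limit, with pseudocounts of 0.1 and 0.01), and the DMSO 24 h value rested on about 14 fragments. MMP25, which is mainly known from neutrophils, was at 0.17, 0.14 and 0.21 FPKM at 24 h and 0.17, 0.12 and 0.25 FPKM at 48 h. These values stood for about 8 to 14 fragments each and never reached the filter. In GENCODE release 29, 19.7% of the exon bases of MMP25 are shared with the antisense gene MMP25-AS1, and since the strand setting of the libraries is not stated, reads of these genes cannot be told apart there.

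The make-up of the membrane-type mRNA pool differed between the libraries. The sum of the 6 proteases was 65.42, 52.64 and 37.19 FPKM at 24 h and 70.85, 76.79 and 59.50 FPKM at 48 h. MMP14 made up 90.7%, 83.9% and 62.8% of this sum at 24 h. MMP15 made up 0.764%, 4.71% and 20.2%. The ratio of MMP14 to MMP15 was 119, 17.8 and 3.11 in these libraries. At 48 h the share of MMP14 was 89.8%, 89.8% and 84.2% and that of MMP15 1.88%, 1.43% and 6.12%, so that the 100 nM library lay near DMSO and the 200 nM library held the largest MMP15 share of that time.

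**Figure D3:**
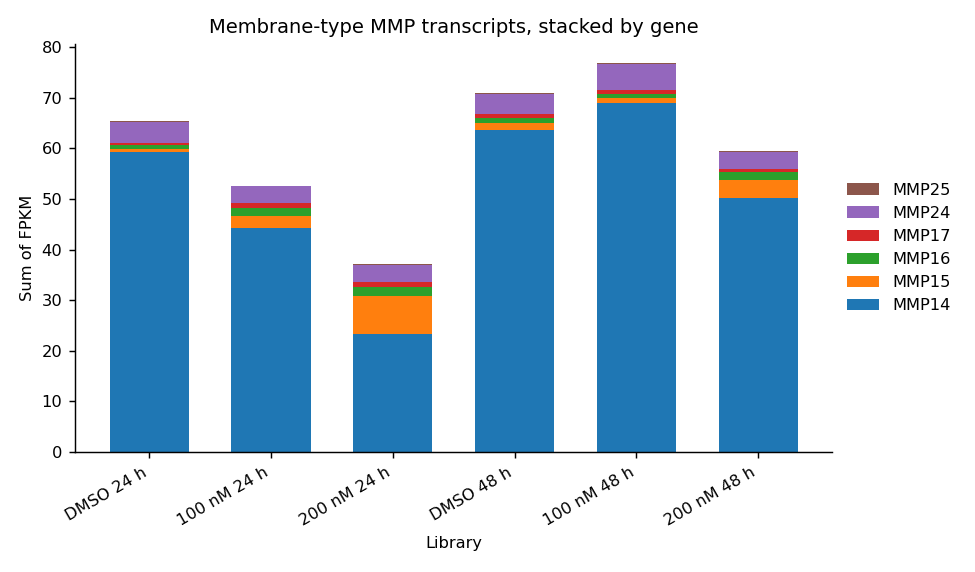
Summed FPKM of the 6 membrane-type MMPs in each of the 6 libraries, as bars that start at 0 and are stacked by gene. With 200 nM at 24 h the bar is the shortest (37.19 FPKM against 65.42 with DMSO), with an MMP14 share of 62.8% and an MMP15 share of 20.2%.

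TIMP2 was the most abundant of the 10 genes. It inhibits MMP14 and also serves as the bridge to the MMP2 precursor. Its level was 181.42, 232.52 and 348.01 FPKM at 24 h and 268.94, 250.72 and 357.93 FPKM at 48 h. The highest values were those of the 200 nM libraries at both times, and the lowest that of DMSO at 24 h. The difference with 200 nM was 0.94 at 24 h, a ratio of 1.92 that stayed under the 2-fold limit, and 0.41 at 48 h. With 100 nM it was 0.36 at 24 h and -0.10 at 48 h. The step from 100 nM to 200 nM was 0.58 at 24 h and 0.51 at 48 h. TIMP2 lies on chromosome 17 of hg19, from 76848609 to 76921472 on the reverse strand, and 9.01% of its exon bases in GENCODE release 29 are shared with an antisense gene, AC022966.1.

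TIMP1, a broad inhibitor of secreted MMPs that acts poorly on MMP14, varied least of the 3 abundant genes. It was at 111.96, 132.22 and 122.91 FPKM at 24 h and 145.67, 140.46 and 139.24 FPKM at 48 h. All 3 libraries of 48 h were above all 3 of 24 h. Its difference from DMSO was 0.24 with 100 nM and 0.13 with 200 nM at 24 h. At 48 h it was -0.05 and -0.06. In GENCODE release 29, TIMP1 lies inside SYN1, a synapsin gene on the opposite strand, with no shared exon bases, and SYN1 itself was at 0.10 FPKM or less.

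TIMP4, an inhibitor best known from the heart, lay far below TIMP1 and TIMP2. It was at 0.43, 1.61 and 2.94 FPKM at 24 h and 1.93, 1.03 and 2.67 FPKM at 48 h. TIMP4 rose with 200 nM at 24 h by 1.46, ranking 158th from the highest of 11660 genes, while the difference of 0.87 with 100 nM was not called. At 24 h TIMP4 passed the filter only through the treated libraries, so its rank is not separate support for the rise. Without the compound, TIMP4 was higher by 1.03 in DMSO 48 h than in DMSO 24 h. At 48 h the differences were -0.53 with 100 nM and 0.32 with 200 nM. These values rest on about 13 fragments with DMSO and about 85 with 200 nM at 24 h. The gene lies on chromosome 3 of hg19, from 12194568 to 12200851 on the reverse strand. In GENCODE release 29 it lies inside the synapsin gene SYN2, on the opposite strand and with no shared exon bases, and SYN2 was at 0.11 FPKM or less.

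TIMP3, which binds to the extracellular matrix and also inhibits the shedding enzyme ADAM17, was close to the detection limit. It was at 0.09, 0.05 and 0.09 FPKM at 24 h and 0.02, 0.06 and 0.14 FPKM at 48 h, or about 2 to 10 fragments per library. A count of 3 fragments would correspond to 0.0362 to 0.0415 FPKM for this gene, and the DMSO 48 h value lay below that. No difference in TIMP3 was detectable at this depth.

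The balance of inhibitor to protease mRNA differed with the dose at 24 h. The sum of the 4 TIMPs was 293.90, 366.40 and 473.95 FPKM at 24 h and 416.56, 392.27 and 499.98 FPKM at 48 h. TIMP2 held between 61.7% and 73.4% of this sum, with the highest share at 200 nM and 24 h. The ratio of TIMP2 to MMP14 was 3.06 with DMSO, 5.26 with 100 nM and 14.9 with 200 nM at 24 h. At 48 h it was 4.23, 3.64 and 7.14. The 200 nM library had the highest ratio at each time, and the 100 nM library was above DMSO at 24 h and below it at 48 h. The ratio of TIMP1 to MMP14 was 1.89, 2.99 and 5.26 at 24 h and 2.29, 2.04 and 2.78 at 48 h. These are ratios of mRNA levels, and neither protein amount nor protease activity was measured here.

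**Figure D4:**
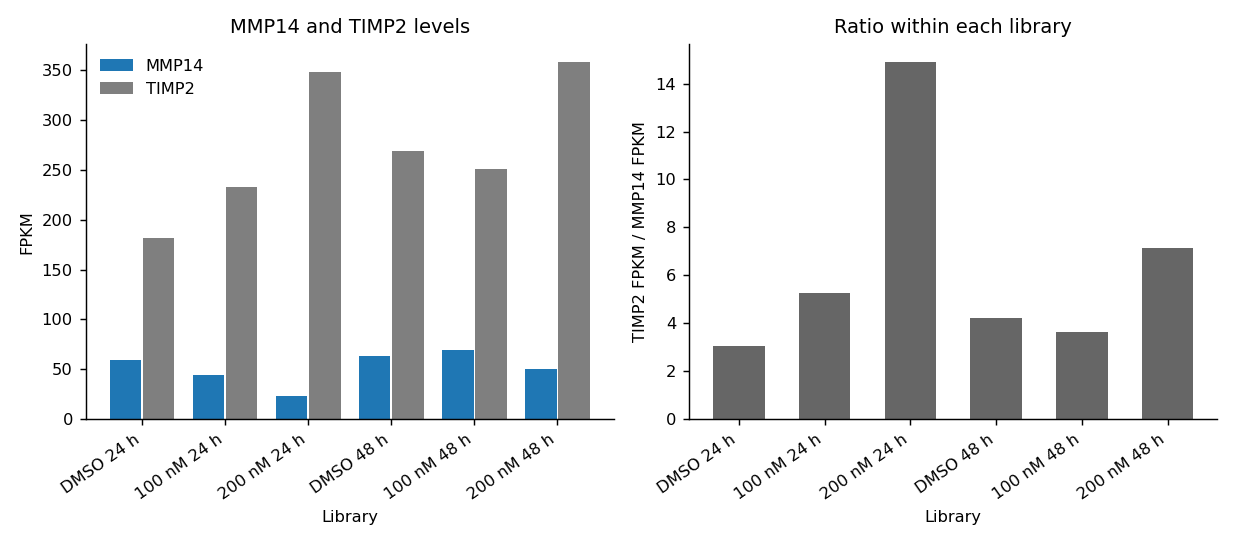
FPKM of MMP14 and TIMP2 in each library, as paired bars, and the ratio of TIMP2 to MMP14 within each library, with both axes starting at 0 and 1 library per bar. The ratio is 3.06 with DMSO and 14.9 with 200 nM at 24 h, and 4.23 and 7.14 at 48 h.

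The DMSO libraries of the 2 times also differed from each other, which bears on the comparisons at both times. DMSO 24 h, the reference of every 24 h call, held the lowest of the 6 values for MMP15, MMP17, TIMP1, TIMP2 and TIMP4. In DMSO 48 h, TIMP4 was at 1.93 FPKM, MMP15 at 1.33 and MMP14 at 63.65. At 24 h with 200 nM they were at 2.94, 7.52 and 23.35 FPKM, and MMP15 was at 2.48 with 100 nM. Calls of the 24 h libraries against DMSO 48 h were not made. TIMP4 rose from DMSO 24 h to DMSO 48 h by 1.03, the only call among the 7 genes that passed the filter, against 2.49% of 11490 genes called higher and 0.131% lower. MMP15 was higher by 0.64, TIMP2 by 0.57 and TIMP1 by 0.38, below the limit, and MMP14 differed by 0.10. With DMSO 24 h as the reference, MMP15 and TIMP4 were called higher with 200 nM at 48 h, by 1.63 and 1.36, where 4.7% of all genes were called higher and 0.454% lower. With 100 nM at 48 h no member was called against DMSO 24 h (1.62% of all genes higher and 0.255% lower), and MMP14 was at 0.21 with 100 nM and -0.24 with 200 nM. TIMP2, again just under the limit, differed from DMSO 24 h by 0.98 with 200 nM and by 0.46 with 100 nM at 48 h. The median over all 10 genes was 0.28 with 100 nM and 0.35 with 200 nM against this reference, in place of -0.06 and 0.13. The decrease in MMP14 was thus called in the 200 nM 24 h library alone, with either reference for the 48 h libraries.

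**Figure D5:**
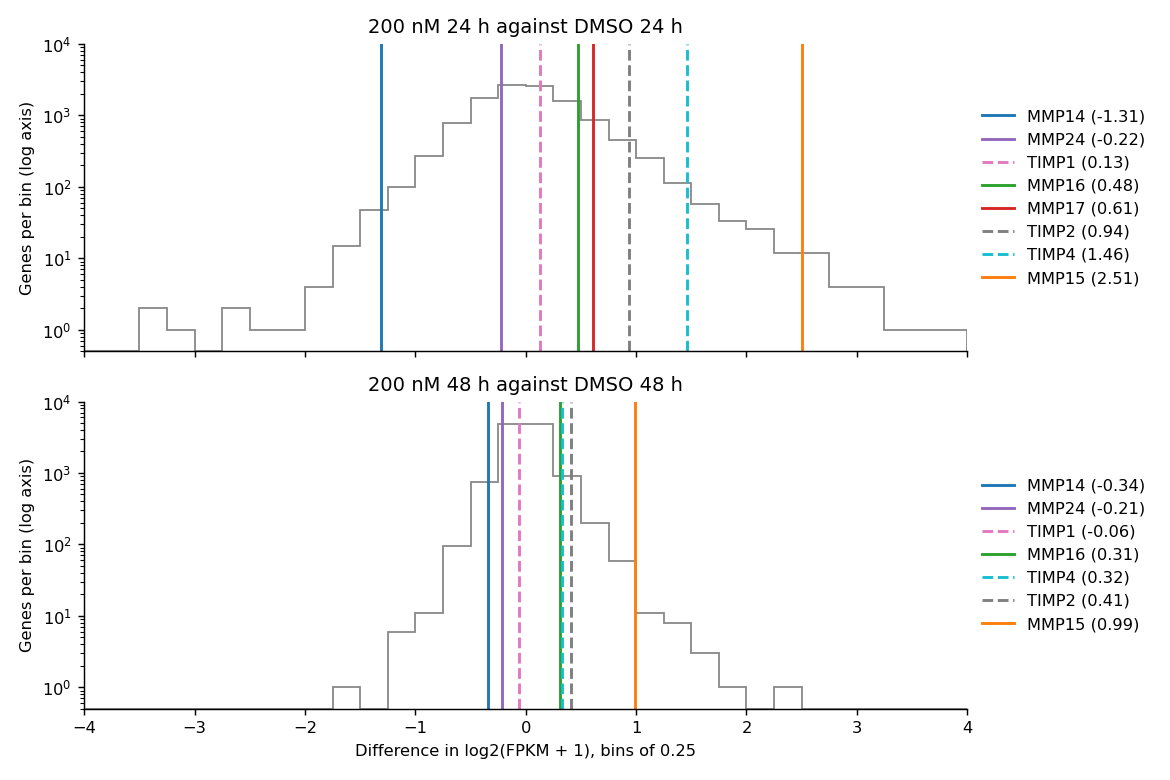
Number of genes per bin of 0.25 in the difference of log2(FPKM + 1), on a log axis, for 200 nM against DMSO at 24 h (11660 genes) and at 48 h (11665 genes), with vertical lines at the members that passed the filter. MMP15 lies in the upper tail at both times (2.51 and 0.99), MMP14 in the lower tail at 24 h (-1.31) and at -0.34 at 48 h.

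The genes that work with these proteases were read from 4 lists of the pathway. Of 12 other MMPs, 3 to 4 passed the filter in each comparison and the only call against DMSO of the same time was a lower value of MMP1, the interstitial collagenase, with 100 nM at 48 h, where it fell by 1.14. Against DMSO 24 h the MMP1 difference was -0.61 and was not called. MMP11, the stromelysin-type MMP activated by furin, was called higher against DMSO 24 h at 48 h with both doses, by 1.25 and 1.22. From DMSO 48 h, however, MMP11 differed by only 0.35 and 0.32, which was not called. DMSO 48 h was itself above DMSO 24 h by 0.90 for MMP11. MMP1 was at 9.44, 14.03 and 8.16 FPKM at 24 h and 14.07, 5.82 and 14.93 FPKM at 48 h. MMP2, whose precursor MMP14 and TIMP2 activate together, was at 0.10 FPKM or less in all 6 libraries. MMP11 had the next highest mean over the 6 libraries and was at 1.05, 2.14 and 2.83 FPKM at 24 h and 2.82, 3.88 and 3.78 FPKM at 48 h. The median over the 12 genes was 0.08 at 24 h with either dose, -0.05 with 100 nM at 48 h and 0.07 with 200 nM at 48 h.

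Of the 4 proprotein convertases, which remove the propeptide of membrane-type MMPs, 3 passed the filter and 1 was called. PCSK5 was at 0.61, 1.74 and 2.34 FPKM at 24 h and 1.54, 1.07 and 1.97 FPKM at 48 h, and rose with 200 nM at 24 h by 1.05. It was under 1 FPKM with DMSO at 24 h and passed the filter there only through the treated library. FURIN, the main activator of MMP14, was at 16.21, 21.12 and 24.07 FPKM at 24 h and 22.28, 20.84 and 22.50 FPKM at 48 h, and its differences were not called. PCSK7, the next most abundant, ranged from 3.93 to 6.21 FPKM. Of 15 ADAM and ADAMTS proteases, 8 passed the filter and none was called in any of the 4 comparisons. Against DMSO 24 h, ADAMTS1, which cuts matrix proteoglycans, was called lower with 100 nM at 48 h, by 1.03 on the log2 scale, from 4.98 to 1.92 FPKM. The most abundant, ADAM9 and ADAM15, ranged from 68.32 to 94.08 and from 45.26 to 52.72 FPKM. The median over the 15 genes with 200 nM at 24 h was 0.22.

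Of 12 other inhibitors and cell surface partners, 11 passed the filter. Among them TFPI2, a serine protease inhibitor of the matrix, rose with 200 nM at 24 h by 1.52 and ITGB3, the integrin beta 3 subunit, rose by 1.51, while ADI1, which encodes a protein that binds the cytoplasmic tail of MMP14, fell by 1.29. TFPI2 was at 5.37, 9.62 and 17.33 FPKM at 24 h and 6.14, 3.63 and 10.71 FPKM at 48 h. ADI1 was at 69.83, 36.50 and 28.05 FPKM at 24 h and 42.84, 52.42 and 25.85 FPKM at 48 h. ITGB3 was at 0.98, 2.86 and 4.62 FPKM at 24 h and 5.34, 2.41 and 10.38 FPKM at 48 h. With DMSO at 24 h it was under 1 FPKM, so at 24 h it passed the filter only through the treated libraries. ITGB3 was also called higher from DMSO 24 h to DMSO 48 h. No gene of this list was called in the other 3 comparisons with DMSO of the same time, but against DMSO 24 h ITGB3 was called higher (2.52) and ADI1 lower (-1.40) with 200 nM at 48 h. The most abundant, BSG, which encodes the MMP inducer basigin, was at 351.68, 454.97 and 585.65 FPKM at 24 h and 489.78, 504.16 and 588.90 FPKM at 48 h. CD63, a tetraspanin that binds TIMP1, ranged from 248.62 to 315.83 FPKM. The median over this list was 0.27 with 200 nM at 24 h and 0.16 at 48 h.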

How the data were processed

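RNA-seq was done on 1 library for each of the 6 conditions. The deposited values are FPKM, which the authors computed for each gene and gave with 2 decimals. The submitters' processing notes name Bowtie2, RSEM and build hg19, without versions, and the strand setting is not given in the sources used here. Coordinates are those of the files. Symbols were taken by NCBI Gene ID from RefSeq (GRCh38.p14), which held 16585 of 16623 genes. Differences in log2(FPKM + 1) from DMSO of the same time were computed over all genes. Calls needed a 2-fold or larger difference and 1 FPKM or more in either library. No test fits 1 library per condition. The members and lists were chosen with earlier results of these data known. Named are all 10 members, listed genes called in any of the 4 comparisons, the 2 most abundant genes of each list, the 3 genes nearest to the most variable member and the marker genes, of which 1 is not reported here. A few genes were named in addition after their values were seen: MMP2, ADAMTS1, and the genes next to or overlapping the members.

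Depth was inferred from the spacing of low values in 299 to 353 genes with 1 transcript of 500 to 1500 bases (GENCODE release 29) and is approximate, so fragment numbers are too, and they cover counting error only. The calling step was tested on simulated data that held counting error only, which says nothing of the spread between cultures. Alternatives were pseudocounts of 0.1 and 0.01, no filter, FPKM of at least 1 in both libraries, TPM, median-of-ratios scaling, a 1.5-fold threshold and DMSO 24 h as the reference. Promoter windows were held by the RefSeq table for 6 of the 10 members. The list of other MMPs named 17 genes, of which 12 were found among the genes measured and entered its counts and medians. Python 3.11.15, numpy 2.4.6, pandas 2.3.3, scipy 1.17.1 and matplotlib 3.10.9 were used.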

Additional observations from a re-analysis of the deposited data

Results flagged for a closer look

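With 100 nM, 7 members passed the filter at both times, and all 7 had differences from DMSO of opposite sign at 24 h and 48 h. The values in log2(FPKM + 1) at 24 h and then 48 h were -0.42 and 0.11 for MMP14, 1.21 and -0.15 for MMP15, 0.46 and -0.20 for MMP16 and -0.25 and 0.30 for MMP24. For the inhibitors they were 0.24 and -0.05 for TIMP1, 0.36 and -0.10 for TIMP2, and 0.87 and -0.53 for TIMP4. With 200 nM this was so for 1 member that passed at both times, TIMP1, at 0.13 and -0.06. Among members that did not pass at both times, MMP17 with 200 nM was at 0.61 and -0.01. TIMP3 with 100 nM was at -0.05 and 0.06. Each is a comparison of 4 libraries, and the difference between the times was not tested. Both comparisons at 100 nM rest on different DMSO libraries. Of all genes that passed the filter, 51.6% had a positive difference with 100 nM at 24 h and 47.2% at 48 h. The share of all genes that changed sign was not counted, so it is not known whether the 7 members differ from other genes in this.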

How the results depend on the processing

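The number of members called higher with 100 nM at 24 h, 1 as reported, was 2 with a pseudocount of 0.1 or 0.01, with TPM and with a 1.5-fold threshold, the addition being TIMP4, and 0 when FPKM of at least 1 was asked of both libraries. With 200 nM at 24 h, 2 as reported, it was 0 with FPKM of at least 1 in both libraries, since MMP15 and TIMP4 were under 1 in DMSO, 3 with pseudocounts of 0.1 and 0.01, the addition being MMP17, and 4 with a 1.5-fold threshold. With 200 nM at 48 h, 0 as reported, MMP15 made it 1 with pseudocounts of 0.1 and 0.01, with TPM and at 1.5-fold, and MMP15 and TIMP4 made it 2 with DMSO 24 h as the reference. The call of MMP14 as lower was kept under every alternative run with 200 nM at 24 h. All 29 member differences that passed the filter kept their sign with TPM and with median-of-ratios scaling. The other alternatives that used DMSO of the same time could not change a sign, so they say nothing on this point. No paired analysis was possible because the conditions hold 1 library each. Calls over all genes were counted under the same alternatives. Higher and lower calls with 100 nM at 24 h, 155 and 15 as reported, ranged from 99 to 640 and from 10 to 144. With 200 nM at 24 h, 523 and 172 ranged from 323 to 1463 and from 151 to 888. With 100 nM at 48 h, 7 and 47 ranged from 2 to 184 and from 29 to 203. With 200 nM at 48 h, 24 and 7 ranged from 16 to 549 and from 4 to 54. The low ends came with FPKM of at least 1 in both libraries, and the high ends with the 1.5-fold threshold or, for higher calls at 48 h, with DMSO 24 h as the reference. List medians in the report are over every listed gene that was found among the genes measured, without a filter. Over the membrane-type MMPs with FPKM of at least 1 in either library the median was 0.10 with 100 nM and 0.48 with 200 nM at 24 h, and it turned to -0.33 and -0.77 with that level asked of both libraries, which kept MMP14 and MMP24. With 100 nM at 48 h, the medians of the 6 lists over filtered genes lay between -0.10 and -0.02, and between 0.05 and 0.46 with DMSO 24 h as the reference. Depth limits MMP25 and TIMP3, and the DMSO 24 h values of MMP15, MMP17 and TIMP4.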
